A study of Mus musculus with 12 samples.

Results

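The integrated stress response and the unfolded protein response were followed through 38 genes in mouse kidney epithelial cells that lost their attachment, with or without the kinases JNK1 and JNK2. The genes were matched by symbol. All 38 were found among the 31026 entries of each of the 4 deposited tables, each alone in 1 entry, and all 38 were tested in all 4 pairwise comparisons. Of them, 16 belong to the ATF4 arm (the factor ATF4, its partners, and its targets in serine and amino acid synthesis), 4 are the sensors of the endoplasmic reticulum and Xbp1, 14 form the chaperone arm, and 4 serve degradation of proteins from the endoplasmic reticulum. The members were not chosen by their values, but the list was drawn up with earlier results of these data known.

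When unfolded proteins gather in the endoplasmic reticulum, PERK (encoded by Eif2ak3), IRE1 (Ern1) and ATF6 signal to the nucleus. PERK and the other eIF2 kinases slow translation and so let more ATF4 be made, and ATF4 turns on genes of amino acid uptake, serine synthesis and, through CHOP (Ddit3), cell death. IRE1 splices the Xbp1 messenger and ATF6 is cut to a free factor, and both then raise chaperones such as BiP (Hspa5). Because ATF4 and IRE1 act through translation and splicing, messenger levels by gene do not measure how active they were.

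The study had 12 samples, 3 in each of 4 groups, all from cultured kidney epithelial cells of C57BL/6 mice, and asked what JNK does in anoikis, cell death set off by detachment. Control cells carried Rosa-CreER, a Cre recombinase activated by tamoxifen and expressed from a ubiquitous locus. JNK-deficient cells carried the same Rosa-CreER with Jnk1flox/flox and Jnk2-/- alleles and are labelled Jnk1-/- Jnk2-/-. Cells of both genotypes were attached monolayers or had been suspended for 4 hours. The deposited tables give 1 FPKM value per group (fragments scaled to transcript length and library size), so the spread between the 3 samples of a group and the depth of each cannot be shown, and every level below is a single group value.

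Promoter sequences come first, because the chaperone arm and the ATF4 arm differ in them. RefSeq windows of 300 bases on GRCm38.p6, from 250 bases before to 50 after each gene's start, were available for 35 of the 38 genes. The first motif searched on both strands was the endoplasmic reticulum stress response element, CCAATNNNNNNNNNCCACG, known from mammalian chaperone genes as a site for ATF6 with NF-Y. It lay in 7 of 12 chaperone arm windows (Hspa5, Hsp90b1, Pdia6, Calr, Canx, Dnajc3 and Creld2), in 1 of 4 degradation windows (Syvn1), in 0 of 16 ATF4 arm windows and in 0.137% of the windows of all 27025 genes. A second form, ATTGGNCCACG, lay in Herpud1 and Dnajb11 and in 0.0444% of all genes. The amino acid response element TGATGNAA, the kind of site that ATF4 binds with C/EBP partners, lay in 3 of 16 ATF4 arm windows (Trib3, Chac1 and Asns), in Herpud1 and in 4.51% of all genes. TGACGTGG, the core of the unfolded protein response element, lay in 0 of the 35 windows and in 0.714% of all genes. None of the matches overlapped another. The 4 windows below show the 3 motifs found, with the fixed letters of each match in capitals. Hspa5 has the classical element close to the start, Hsp90b1 has it once on each strand, Herpud1 has both the second form and an amino acid response element, and Chac1 has the amino acid response element alone, that element being read from the opposite strand in both genes.
Hspa5 promoter, chr2:34771840-34772139, plus strand: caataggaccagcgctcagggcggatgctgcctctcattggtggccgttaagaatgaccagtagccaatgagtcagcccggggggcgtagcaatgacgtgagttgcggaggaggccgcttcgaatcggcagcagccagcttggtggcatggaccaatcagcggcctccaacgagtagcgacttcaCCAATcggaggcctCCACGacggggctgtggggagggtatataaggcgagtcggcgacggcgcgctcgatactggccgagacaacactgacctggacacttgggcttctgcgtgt
Hsp90b1 promoter, chr10:86705395-86705694, minus strand: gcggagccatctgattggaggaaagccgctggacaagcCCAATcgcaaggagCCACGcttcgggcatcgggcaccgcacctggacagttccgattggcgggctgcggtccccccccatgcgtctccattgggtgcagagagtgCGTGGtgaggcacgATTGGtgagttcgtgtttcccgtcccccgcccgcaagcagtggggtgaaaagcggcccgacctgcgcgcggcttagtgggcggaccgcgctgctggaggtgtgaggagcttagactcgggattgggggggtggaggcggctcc
Herpud1 promoter, chr8:94386179-94386478, plus strand: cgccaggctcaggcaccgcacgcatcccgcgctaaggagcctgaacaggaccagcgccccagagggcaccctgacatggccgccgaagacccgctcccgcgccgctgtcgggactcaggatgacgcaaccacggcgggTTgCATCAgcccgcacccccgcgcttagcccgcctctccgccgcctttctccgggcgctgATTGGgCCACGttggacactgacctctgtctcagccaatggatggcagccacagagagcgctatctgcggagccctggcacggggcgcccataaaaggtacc
Chac1 promoter, chr2:119350992-119351291, plus strand: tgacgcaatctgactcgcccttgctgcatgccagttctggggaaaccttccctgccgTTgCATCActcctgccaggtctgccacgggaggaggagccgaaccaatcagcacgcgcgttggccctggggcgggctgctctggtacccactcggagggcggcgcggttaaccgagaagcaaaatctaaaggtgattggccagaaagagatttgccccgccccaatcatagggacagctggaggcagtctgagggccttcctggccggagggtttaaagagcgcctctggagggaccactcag
The Hspa5 match began 65 bases before the start, the Hsp90b1 matches 212 and 107, the Herpud1 matches 112 (amino acid response element) and 52 (second form), and the Chac1 match 193. A match is a string of letters, and binding was not measured.

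The samples were checked on the genes the study removed and on cell type markers. Mapk8, which encodes JNK1, was at 8.76 FPKM in control against 2.26 FPKM in JNK-deficient cells when attached and at 10.9 against 2.52 FPKM when suspended. Mapk9, which encodes JNK2, was at 12.8 and 8.89 FPKM attached and at 29.2 and 17.4 FPKM suspended; the tables do not separate the deleted parts of either gene from the rest. All 9 kidney epithelial markers (among them Krt8, Krt18, Epcam, Cdh16 and Pax8) were expressed, with a summed level of 4716 FPKM in attached and 2550 FPKM in suspended control cells, and of 4321 and 2568 FPKM in JNK-deficient cells. The 7 leukocyte markers summed to 55.7 and 70.9 FPKM in control and to 77.9 and 78.3 FPKM in JNK-deficient cells. Suspension raised Cd68, Csf1r and Ptprc in control and JNK-deficient cells. It lowered 1 other tested leukocyte marker in each genotype, with log2 ratios of -0.79 in control and -1.11 in JNK-deficient cells. Emr1, Itgam and Lyz2 stayed below 1 FPKM in every group, with Emr1 at 0 in JNK-deficient cells. Fibroblast markers summed to at most 3.38 FPKM and endothelial markers to at most 1.5 FPKM in any group. In the genotype tables the leukocyte sum was 52.4 FPKM for control against 77.5 FPKM for JNK-deficient cells when attached, with 2 of 4 tested markers called higher (Csf1r and Cd14), and 72.1 and 82.5 FPKM when suspended, with 1 of 5 called higher (Csf1r). There the kidney markers were at 4432 and 4300 FPKM and at 2591 and 2703 FPKM. The part of these shifts in the results was not tested, and in bulk RNA fewer cells of a type and less RNA per cell cannot be told apart. The locus of 9 members was also that of another entry, and 3 share over 10% of their exonic bases with other annotated genes (Cebpb 20.7%, Hsp90b1 15.7% and Psph 10.4%), so their values are less certain where reads could be split.

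Suspension changed the ATF4 arm in opposite directions at once. In control cells 3 of the 16 genes rose (Ddit3, Ppp1r15a and Cebpg) and 10 fell, and in JNK-deficient cells the same 3 rose and the same 10 fell, 18.8% and 62.5% of the arm. Ddit3 and Ppp1r15a had the largest rises of all members in control cells, and Shmt2, an enzyme of serine and folate metabolism, had the largest fall in both genotypes. Over all 38 members 11 rose and 17 fell in control cells, where the background was 33.0% of all tested genes called higher and 32.1% called lower. As shares of the members these are 28.9% and 44.7%, the first near the background. In JNK-deficient cells 15 rose and 14 fell, beside a background of 30.6% higher and 29.0% lower, so the shares of 39.5% and 36.8% stood somewhat above it. The median log2 ratio of the ATF4 arm was -0.45 for control and -0.63 for JNK-deficient cells, beside 0.02 and 0.04 over all genes tested.

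**Figure D1:**
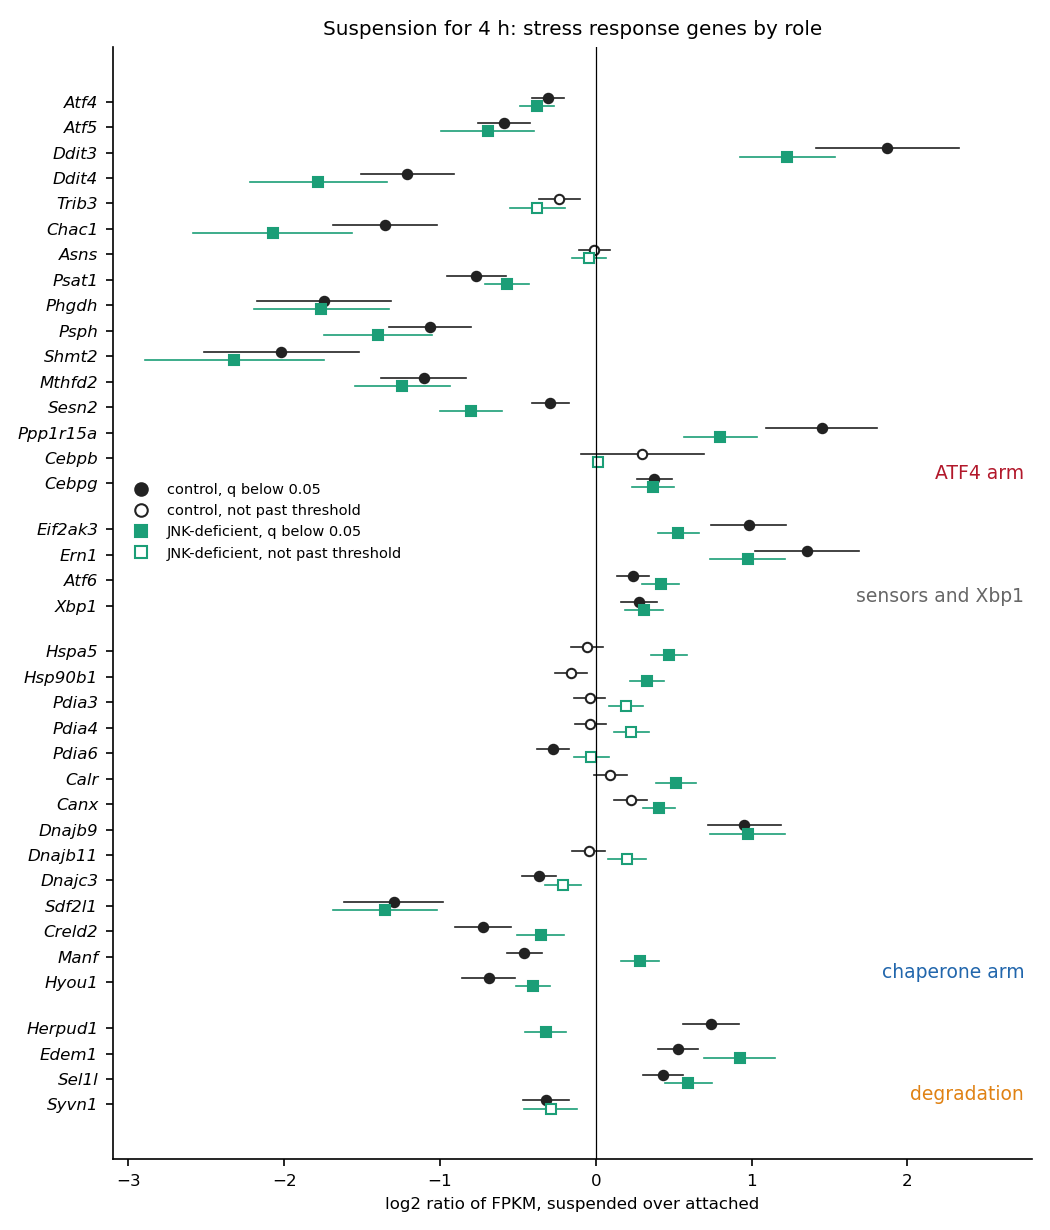
Log2 ratio of FPKM, suspended over attached, for the 38 genes grouped by role. Circles are control and squares JNK-deficient cells, filled where the authors' q-value was below 0.05. Lines are 1 standard error derived from the authors' p-value, an upper bound at its lowest step, and Cebpb in JNK-deficient cells has none. The serine and one-carbon genes lie left of 0 in both genotypes, the 4 genes of the sensors and Xbp1 right of 0, and Herpud1 and Manf on opposite sides of 0 in the 2 genotypes.

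Ddit3, which encodes CHOP, the transcription factor tied to death after prolonged stress, stood at 41.5 FPKM in attached and 152 FPKM in suspended control cells. In JNK-deficient cells it stood at 41.9 and 98.3 FPKM. In the table that compares the genotypes when attached it was at 39.0 FPKM in control against 41.7 FPKM in JNK-deficient cells, which did not pass. Both rises passed the threshold in the authors' deposited tables, with log2 ratios of 1.87 (q = 0.000123) and 1.23 (q = 0.000144). Its entry (chromosome 10, 127290793 to 127311786 on mm10) shares its locus with Mars, on the opposite strand, which fell, and 4.73% of the exonic bases of Ddit3 are shared with other genes.

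Ppp1r15a encodes GADD34, the subunit that directs a phosphatase to eIF2 and so ends the block of translation. It was at 31.7 and 86.5 FPKM in attached and suspended control cells and at 33.1 and 57.7 FPKM in JNK-deficient cells. Its pattern followed that of Ddit3, with log2 ratios of 1.45 (q = 0.000123) and 0.80 (q = 0.00167) in the authors' deposited tables. Cebpg, a dimer partner of ATF4, rose by less, from 20.7 to 26.9 FPKM in control and from 21.4 to 27.7 FPKM in JNK-deficient cells, with ratios of 0.38 and 0.37.

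Atf4 itself fell. Its messenger went from 256 to 207 FPKM in control and from 253 to 195 FPKM in JNK-deficient cells, ratios of -0.31 (q = 0.00431) and -0.38 (q = 0.00145) in the authors' deposited tables. Atf5, a related factor, went from 68.1 to 45.3 FPKM and from 81.7 to 50.5 FPKM. Chac1, which breaks down glutathione, fell from 27.7 to 10.8 FPKM in control and from 40.4 to 9.58 FPKM in JNK-deficient cells, where its ratio was -2.07. Ddit4, an inhibitor of mTORC1 also known as REDD1, fell from 133 to 57.4 FPKM and from 152 to 44.1 FPKM. Sesn2, another brake on mTORC1, fell from 18.8 to 15.4 FPKM and from 19.5 to 11.2 FPKM. The targets Trib3 (ratios -0.23 and -0.38), Asns (-0.01 and -0.05) and Cebpb (0.30 and 0.02) did not pass the threshold in either genotype, so Asns, the asparagine synthetase gene, stayed within 0.994-fold and 0.969-fold of its attached level.

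The 5 enzymes that make serine and pass its carbon on to folate, a subset grouped after their values were seen, all fell in both genotypes. Their median ratios were -1.10 and -1.40. Phgdh, the first enzyme of serine synthesis, was at 297 FPKM in attached and 88.6 FPKM in suspended control cells and at 362 and 107 FPKM in JNK-deficient cells. Suspended cells of either genotype thus held 0.299-fold and 0.295-fold the attached level. Psat1 and Psph, the next enzymes, went from 90.1 to 52.9 FPKM and from 26.6 to 12.7 FPKM in control cells, and from 153 to 103 FPKM and from 29.8 to 11.3 FPKM in JNK-deficient cells. Shmt2, the mitochondrial enzyme that turns serine into glycine and a folate-bound carbon, had the largest fall of all members. It went from 57.2 to 14.1 FPKM in control and from 57.9 to 11.6 FPKM in JNK-deficient cells, with log2 ratios of -2.02 (q = 0.000123) and -2.32 (q = 0.000144) by the authors' deposited tables. Mthfd2, which acts next in the mitochondrion, fell from 60.5 to 28.1 FPKM and from 66.0 to 27.9 FPKM.

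**Figure D2:**
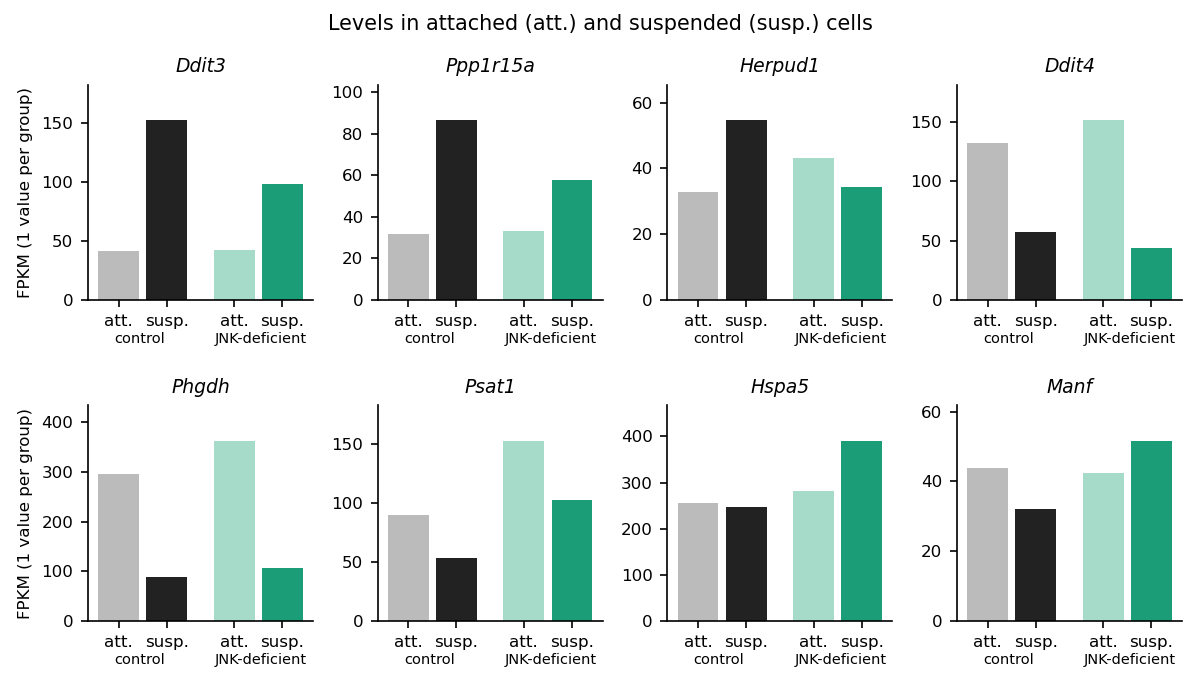
FPKM of 8 genes in attached and suspended cells of each genotype, 1 deposited value per group with no error, each pair from its own suspension table. Ddit3 and Ppp1r15a rise in both genotypes, Ddit4, Phgdh and Psat1 fall in both, and Herpud1, Hspa5 and Manf take different courses in control and JNK-deficient cells.

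The suspension ratios moved with GC content over all genes tested (Spearman rho -0.34 in control and -0.40 in JNK-deficient cells, a description across genes), and the median GC content was 55.9% in the ATF4 arm, 47.7% in the chaperone arm and 50.8% over all genes tested in control cells. After correction for GC content and length the ATF4 arm median was -0.04 and -0.07, Atf5 turned to a rise in both genotypes (0.80 and 0.77) and Sesn2 to a rise in control cells (0.50). The falls of Atf4 and Ddit4 in both genotypes, of Chac1 in control cells and of Sesn2 in JNK-deficient cells, and the rise of Cebpg in both, no longer passed. The rises of Ddit3 and Ppp1r15a passed in both, and so did the falls of all 5 serine and one-carbon genes. In JNK-deficient cells the ratio of Shmt2 became -1.65 and that of Chac1 -1.34. Trib3 was newly called higher in both genotypes (0.51 and 0.47) and Cebpb in control cells, where it moved to 2.34, the largest shift of any member and the one with a GC content of 67.2%.

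**Figure D3:**
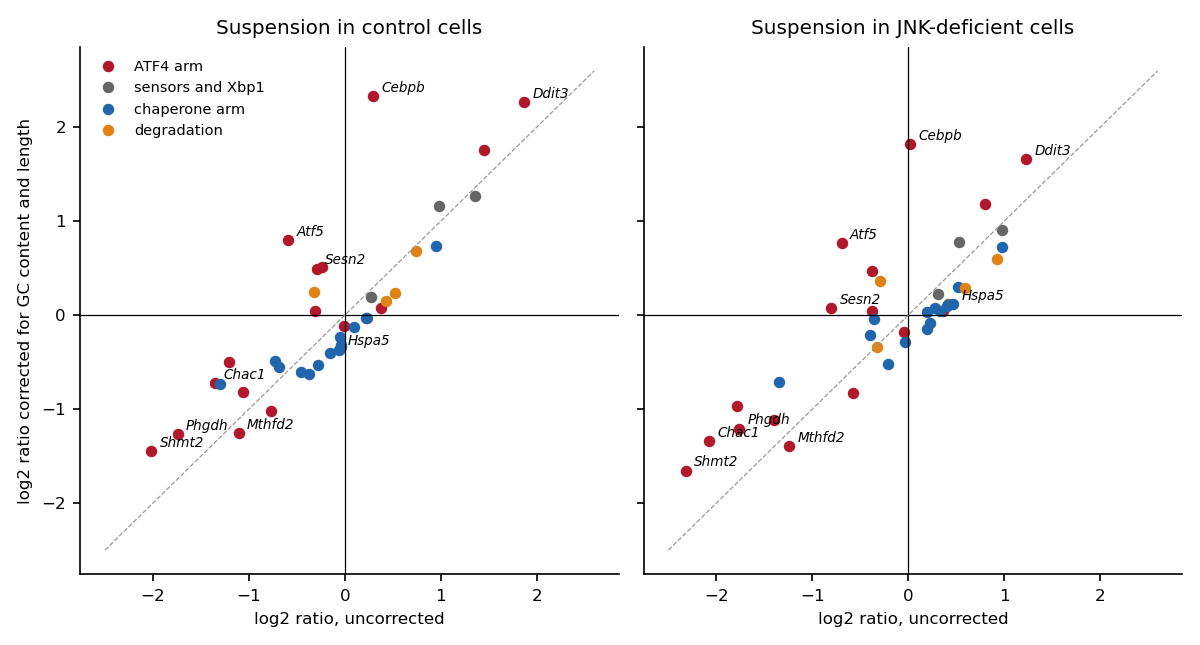
Log2 suspension ratio of the 38 genes before (horizontal axis) and after (vertical axis) correction for GC content and transcript length, in control (left) and JNK-deficient cells (right), coloured by role. The dashed line marks no change. Most ATF4 arm genes lie above it and most chaperone arm genes below it, Atf5 changes sign, and Shmt2 remains the lowest.

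The sensor genes and Xbp1 all rose with suspension in both genotypes, with median log2 ratios of 0.63 (control) and 0.47 (JNK-deficient). All 4 were called higher, where the share over all tested genes was 33.0% for control and 30.6% without JNK. Ern1, the gene of IRE1, was at 6.83 and 17.5 FPKM in attached and suspended control cells and at 6.31 and 12.4 FPKM in JNK-deficient cells. Eif2ak3, the gene of PERK, was at 30.6 and 60.5 FPKM in control and at 33.9 and 48.9 FPKM in JNK-deficient cells. Suspended levels were above attached levels in both tables for both genes. In control cells the ratios of Ern1 (1.35) and Eif2ak3 (0.98) both had q = 0.000123 in the authors' deposited table. Atf6 rose from 18.9 to 22.3 FPKM and from 19.8 to 26.4 FPKM, and Xbp1, whose messenger is what IRE1 splices, from 82.1 to 99.6 FPKM and from 120 to 149 FPKM. The tables do not separate spliced from unspliced Xbp1. After correction for GC content and length, Ern1 and Eif2ak3 passed in both genotypes and Atf6 and Xbp1 in neither.

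In the chaperone arm 1 of 14 genes rose and 6 fell with suspension in control cells (median -0.11), which is 7.14% and 42.9% of the arm beside 33.0% and 32.1% of all tested genes. In JNK-deficient cells 6 rose and 3 fell (median 0.22), which is 42.9% and 21.4% beside 30.6% and 29.0%. Dnajb9, the BiP co-chaperone ERdj4 and a textbook target of XBP1, rose in both, from 26.9 to 52.0 FPKM in control and from 35.3 to 69.4 FPKM in JNK-deficient cells, which is 1.93-fold and 1.97-fold. Hspa5, the gene of BiP, the main chaperone of the compartment, was at 256 and 246 FPKM in attached and suspended control cells and at 282 and 390 FPKM in JNK-deficient cells. Suspended and attached levels were thus nearly equal in control cells and apart in JNK-deficient cells. The JNK-deficient rise had a ratio of 0.47 (q = 0.000144) in the authors' deposited table, beside -0.06 (q = 0.646) in the authors' deposited table for control cells.

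Hsp90b1, the gene of GRP94, which folds integrins and other client proteins, went from 231 to 207 FPKM in control, a ratio of -0.16 that did not pass, and rose from 247 to 309 FPKM in JNK-deficient cells. The lectin chaperones Calr and Canx, which hold new glycoproteins, had control ratios of 0.09 and 0.22 that did not pass and rose in JNK-deficient cells from 387 to 553 FPKM and from 178 to 236 FPKM. Manf, a small secreted factor of the stress response, fell from 43.9 to 31.9 FPKM in control cells and rose from 42.3 to 51.5 FPKM in JNK-deficient cells. Sdf2l1, a BiP co-factor, fell from 10.9 to 4.42 FPKM and from 13.0 to 5.09 FPKM, the lowest levels among the members. Creld2 fell from 30.6 to 18.5 FPKM and from 33.2 to 26.0 FPKM, and Hyou1, the nucleotide exchange factor of BiP, from 60.4 to 37.5 FPKM and from 69.3 to 52.4 FPKM. Pdia6, a disulphide isomerase, and Dnajc3, a BiP co-chaperone, fell in control cells (ratios -0.28 and -0.37) and had ratios of -0.03 and -0.21 in JNK-deficient cells that did not pass. Pdia3 and Pdia4, further disulphide isomerases, and the BiP co-chaperone Dnajb11 passed in neither genotype, with ratios between -0.04 and 0.23.

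These chaperone levels shifted with GC content too. After the correction 1 gene rose and 10 fell in control cells (median -0.38), Hspa5, Hsp90b1, Pdia3 and Pdia4 being called lower there. In JNK-deficient cells 2 rose (Calr and Dnajb9) and 2 fell (Pdia6 and Dnajc3), with a median of -0.01, and the changes of Hspa5, Hsp90b1, Canx, Manf, Sdf2l1, Creld2 and Hyou1 no longer passed.

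Among the degradation genes, Edem1, which steers misfolded glycoproteins to disposal, rose from 12.5 to 17.9 FPKM in control and from 10.6 to 20.0 FPKM in JNK-deficient cells. Sel1l, the partner of the ligase HRD1, rose from 26.8 to 36.1 FPKM and from 24.3 to 36.6 FPKM. Syvn1, which encodes HRD1, went from 25.1 to 20.1 FPKM in control, a fall with q = 0.0483 in the authors' deposited table, and from 25.6 to 21.0 FPKM in JNK-deficient cells, which did not pass. Herpud1, a membrane protein of the same complex, was at 32.7 and 54.6 FPKM in attached and suspended control cells and at 43.0 and 34.4 FPKM in JNK-deficient cells. It was the only member called higher in control and lower in JNK-deficient cells, and Manf was the only one called the reverse way. Of the windows searched, the promoter of Herpud1 printed above was the only one of a member that held 2 different motifs. Its ratios of 0.74 (q = 0.000123) and -0.32 (q = 0.0243) both passed in the authors' deposited tables, and both also passed after correction for GC content and length. After that correction Edem1 no longer passed in control cells, Syvn1 no longer passed there, and Sel1l passed in neither genotype.

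In attached cells, before any suspension, the members leaned towards higher levels without JNK. Of the 38 genes, 17 were higher and 0 lower in JNK-deficient than in control cells by the authors' q-value, and 34 had a ratio above 0. The background was 14.7% of all tested genes called higher and 14.1% called lower, against 44.7% and 0% of the members, and 49.8% of all tested genes had a ratio above 0. In the ATF4 arm all 16 ratios were above 0 and 8 passed (median 0.23), and in the chaperone arm 13 of 14 were above 0 and 6 passed (median 0.19), beside -0.00 over all genes tested. The differences were modest, from 1.16-fold to 1.79-fold among those that passed.

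Psat1 had the largest ratio, with 84.6 FPKM in control against 152 FPKM in JNK-deficient cells, a ratio of 0.84 with q = 0.000347 in the authors' deposited table. Chac1 (26.1 and 40.2 FPKM), Asns (84.1 and 109 FPKM), Phgdh (279 and 360 FPKM), Psph (25.0 and 29.6 FPKM), Ddit4 (125 and 151 FPKM), Atf5 (64.0 and 81.3 FPKM) and Cebpb (5.37 and 9.20 FPKM) were the other ATF4 arm genes that passed. Atf4 itself (240 and 252 FPKM), Ddit3 (39.0 and 41.7 FPKM) and Ppp1r15a (29.7 and 32.9 FPKM) did not. The 5 further members of the arm that did not pass were Trib3, Shmt2, Mthfd2, Sesn2 and Cebpg, with ratios from 0.10 to 0.21. Xbp1 was at 77.2 and 120 FPKM (0.63, q = 0.000347) in the authors' deposited table, and Eif2ak3, at 28.8 and 33.7 FPKM, also passed. Ern1 (-0.03) and Atf6 (0.15) did not.

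In the chaperone arm Dnajb9 was at 25.3 FPKM in control against 35.1 FPKM in JNK-deficient cells, Dnajc3 at 29.3 and 38.1 FPKM, Sdf2l1 at 10.2 and 12.9 FPKM and Hyou1 at 56.8 and 68.9 FPKM. Hspa5 at 241 and 280 FPKM and Calr at 329 and 385 FPKM were nearer the threshold, with q = 0.0491 and q = 0.0389 in the authors' deposited table. The other 8 had ratios from -0.01 (Pdia4) to 0.20 (Creld2). Herpud1 was at 30.7 and 42.8 FPKM, the only degradation gene that passed, and Edem1 (-0.16), Sel1l (-0.06) and Syvn1 (0.11) did not. None of the 38 calls changed after correction for GC content and length in this comparison, and at a q-value below 0.01 11 of the 17 passed.

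In suspended cells the arms parted. All 14 chaperone arm ratios of JNK-deficient over control cells were above 0 and 9 passed (median 0.49), while in the ATF4 arm 8 of 16 were above 0, 1 was called higher and 2 lower (median -0.01, beside 0.01 over all genes tested). Over all 38 genes 11 were higher and 4 lower, where the background was 5.57% of all tested genes called higher and 6.93% called lower, with shares of 28.9% and 10.5% among the members, and where 51.0% of all tested genes had a ratio above 0. The 2 genotype comparisons share no samples with each other, but each shares its groups with the suspension comparisons.

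The chaperones that passed were at between 1.29-fold and 1.67-fold the control level. Manf was at 32.4 FPKM in suspended control and 54.1 FPKM in suspended JNK-deficient cells, Hspa5 at 250 and 409 FPKM, Hsp90b1 at 211 and 326 FPKM and Calr at 379 and 582 FPKM, the highest level of any member. All 4 had q = 0.00099 in the authors' deposited table, and their log2 ratios were 0.74, 0.71, 0.63 and 0.62. Creld2 (18.8 and 27.3 FPKM), Hyou1 (38.1 and 55.1 FPKM), Dnajc3 (24.5 and 34.8 FPKM), Dnajb9 (52.9 and 73.1 FPKM) and Pdia6 (105 and 136 FPKM) were the other 5. Of the 9 genes, 6 had the endoplasmic reticulum stress response element in the promoter window searched, Manf and Hyou1 had no window, and Dnajb9 had no match. Canx, with the element, had a ratio of 0.26 that did not pass, and so did Dnajb11 (0.36), Pdia3 (0.23), Pdia4 (0.22) and Sdf2l1 (0.26).

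**Figure D4:**
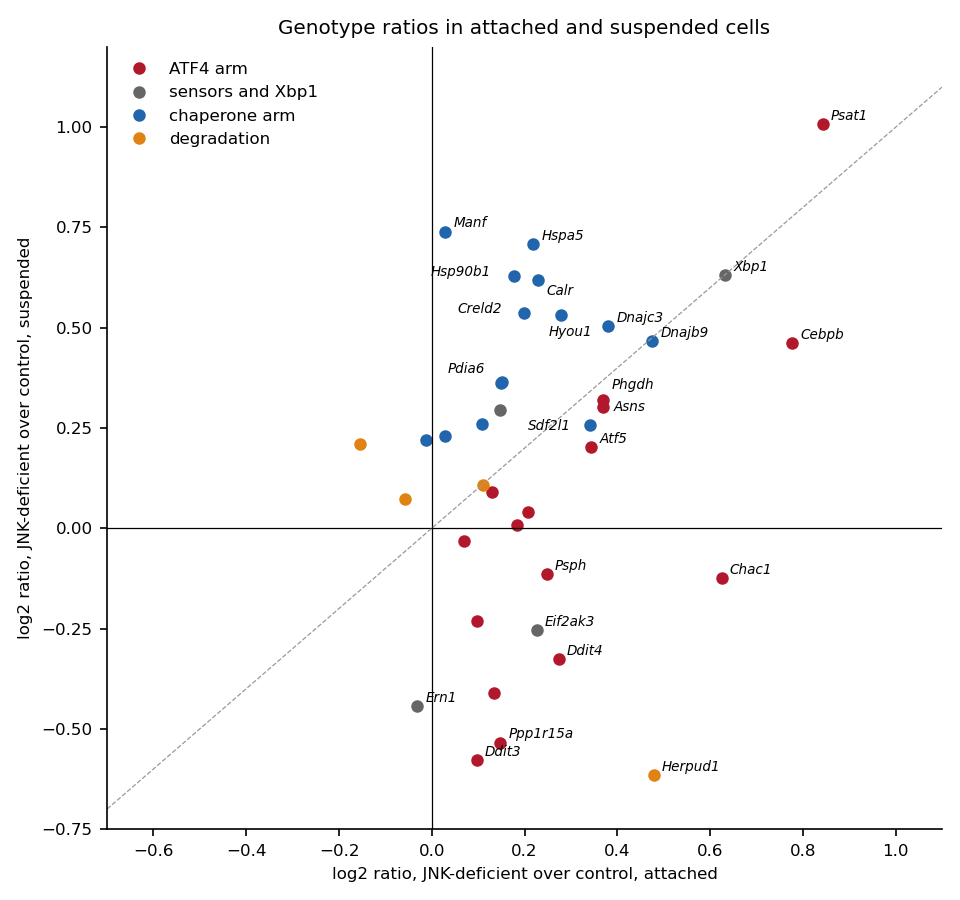
Log2 ratio of JNK-deficient over control cells for the 38 genes, attached on the horizontal and suspended on the vertical axis, coloured by role and named where either comparison passed the authors' q-value of 0.05. The dashed line marks equal ratios. Chaperone arm genes lie above 0 on the vertical axis, with Manf, Hspa5, Hsp90b1 and Calr highest among them, and Ddit3, Ppp1r15a, Ern1 and Herpud1 lie below it.

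The genes lower in suspended JNK-deficient cells were Ddit3, Ppp1r15a, Ern1 and Herpud1. Ddit3 was at 154 FPKM in suspended control and 103 FPKM in suspended JNK-deficient cells (ratio -0.58, q = 0.0197), Ppp1r15a at 87.9 and 60.7 FPKM (-0.53, q = 0.0283) and Ern1 at 17.7 and 13.1 FPKM (-0.44, q = 0.0337) in the authors' deposited table. Herpud1 was at 55.5 and 36.3 FPKM (-0.62, q = 0.00099) in the authors' deposited table, the reverse of its order in attached cells. After correction for GC content and length Ppp1r15a no longer passed, and no other call of this comparison was lost; at a q-value below 0.01 Herpud1 alone of the 4 passed. Psat1, at 53.8 and 108 FPKM, was the only ATF4 arm gene that was higher, 2.01-fold. Xbp1, at 101 and 157 FPKM, was the only higher gene in the group of the sensors and Xbp1, with the same ratio of 0.63 as in attached cells. Phgdh (0.32), Asns (0.30), Atf5 (0.20), Chac1 (-0.12), Ddit4 (-0.33), Psph (-0.12) and Cebpb (0.46), which were higher in attached JNK-deficient cells, did not pass here, and whether each ratio differed between the states is given by the test that follows.

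The difference between the suspension effects of the 2 genotypes was tested gene by gene (JNK-deficient minus control, on the log2 scale). Apart from a small common shift, because the tables scale a shared group differently, this is the genotype ratio in suspended minus that in attached cells. The sign of a difference close to 0 can therefore depend on the tables used. Of the 38 genes 2 passed with a positive difference (Manf and Hspa5) and 2 with a negative one (Herpud1 and Ddit4), beside 0.594% and 1.33% of the 12114 genes tested. In the chaperone arm 13 of 14 differences were above 0 (median 0.26), and in the ATF4 arm 15 of 16 were below 0 (median -0.21), while over all genes tested 56.6% were above 0 and the median was 0.05. Against that median of all genes, 12 of 14 chaperone arm genes lay above and 15 of 16 ATF4 arm genes below. The opposite lean of the arms thus lay in the signs of most genes, and 3 of these 30 genes passed singly.

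Herpud1 had the largest difference of the members, -1.06 (95% interval -1.44 to -0.69, adjusted p = 5.08e-05 by a z-test built on the authors' p-values, with Benjamini-Hochberg adjustment). By the same z-test on the authors' p-values, Manf differed by 0.74 (0.42 to 1.07, adjusted p = 0.00167). Herpud1 and Manf passed under every alternative tried; 9.25% of the exonic bases of Manf (chromosome 9, 106887415 to 106891938 on mm10) are shared with other annotated genes. Hspa5 differed by 0.52 (0.22 to 0.83, adjusted p = 0.0399 from the authors' p-values), and its adjusted p was 0.0777 after centring on the median of all genes, 0.071 after correction for GC content and length, and 0.0682 and 0.191 with standard errors from the suspension or the genotype tables alone. Ddit4 differed by -0.57 (-0.90 to -0.24, adjusted p = 0.0401 from the authors' p-values). Its adjusted p was 0.154 after correction for GC content and length, and it also no longer passed with standard errors from the suspension tables alone, where they are upper bounds. The z-test is an approximation, since no exact test can be run on 1 value per group.

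The other members did not pass, and their intervals show what remained possible. Hsp90b1 had a difference of 0.49 (0.19 to 0.78, adjusted p = 0.0599 from the authors' p-values) and Calr of 0.42 (0.10 to 0.74), while Ddit3 had -0.64 (-1.25 to -0.04) and Ppp1r15a -0.65 (-1.17 to -0.13), with adjusted p between 0.207 and 0.382 for the last 3. Chac1 (-0.72, -1.24 to -0.20) and Eif2ak3 (-0.45, -0.75 to -0.15) were of like size. The differences of Phgdh (-0.02, -0.33 to 0.29), Xbp1 (0.03, -0.29 to 0.36), Dnajb9 (0.02, -0.33 to 0.38) and Atf4 (-0.07, -0.36 to 0.22) were close to 0, and their intervals reach at most 0.38 from 0 on either side.

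Further genes of the same pathways were counted from lists that hold none of the members. Over all tested genes the background was 33.0% called higher and 32.1% lower with suspension in control cells, and 30.6% and 29.0% in JNK-deficient cells. For JNK-deficient over control cells it was 14.7% higher and 14.1% lower when attached, and 5.57% and 6.93% when suspended. In a list of 27 further amino acid response genes, 17 were higher and 2 lower in attached JNK-deficient cells (median 0.27), and with suspension 8 of 26 tested rose and 13 fell in control and 7 of 27 rose and 14 fell in JNK-deficient cells. Slc7a11, the cystine transporter, rose from 1.15 to 28.9 FPKM in control and from 1.79 to 26.5 FPKM in JNK-deficient cells. Gdf15, a secreted stress cytokine, fell from 1042 to 50.4 FPKM and from 581 to 27.9 FPKM; its log2 ratios of -4.37 and -4.38 became -2.95 and -2.88 after correction for GC content and length, and both still passed. Atf3, a stress-induced factor that dimerises with other ATF and JUN proteins, rose from 10.3 to 83.0 FPKM in control cells. It was lower without JNK in both states, at 9.73 against 3.15 FPKM attached and at 84.5 against 19.4 FPKM suspended. Stc2, a secreted glycoprotein, was at 8.53 and 27.7 FPKM in attached control and JNK-deficient cells. With suspension it fell from 27.9 to 4.37 FPKM in JNK-deficient cells. Jdp2, a repressor of the AP-1 family, fell from 27.7 to 3.16 FPKM in control and from 31.3 to 2.85 FPKM in JNK-deficient cells, with log2 ratios of -3.13 and -3.45 that became -2.56 and -2.79. After the same correction 8 of the list rose and 12 fell in control and 6 rose and 11 fell in JNK-deficient cells. Over all genes so corrected 3990 of 12653 rose and 3381 fell in control, and 3500 of 12347 rose and 2671 fell in JNK-deficient cells. Nupr1, a chromatin-associated stress protein, was at 3193 and 6193 FPKM in attached control and JNK-deficient cells and at 1769 and 2639 FPKM in suspended cells, and Cth, an enzyme of cysteine synthesis, at 6.79 and 12.3 FPKM attached. In suspended cells 5 of 26 were higher, among them the neutral amino acid transporter Slc1a4 (53.3 and 99.3 FPKM), and 2 were lower, Atf3 and Gdf15 (51.2 and 29.4 FPKM).

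The 17 cytosolic tRNA synthetase genes, many of which are ATF4 targets, held 0 that rose and 11 that fell with suspension in control cells, and 0 that rose and 12 that fell in JNK-deficient cells (medians -0.38 and -0.66). The others did not pass, and 4 and 3 genes had ratios above 0. Of all tested genes, 33.0% rose and 32.1% fell in control, and 30.6% rose and 29.0% fell in JNK-deficient cells. Mars fell from 71.4 to 29.2 FPKM and Tars from 62.3 to 29.9 FPKM in control cells, and Iars from 57.5 to 27.5 FPKM in JNK-deficient cells. After correction for GC content and length 14 and 13 of them fell, but Vars, which went from 56.5 to 24.0 FPKM in control cells, no longer passed. Between the genotypes 0 of the 17 passed in either state. Of 13 genes for the eIF2 kinases, the eIF2 subunits, its phosphatase and its exchange factor, 2 rose and 5 fell in each genotype with suspension and 0 passed between the genotypes. After the correction 0 rose in either genotype, and 7 fell in control and 6 in JNK-deficient cells. The kinase gene Eif2ak4, which encodes the amino acid sensor GCN2, fell from 13.7 to 8.71 FPKM in control and from 14.6 to 7.77 FPKM in JNK-deficient cells.

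Among further genes of the folding compartment, most ratios of JNK-deficient over control suspended cells were above 0. They were so in 21 of 24 translocation and glycosylation genes and 17 of 22 further folding and redox genes, beside 51.0% of all tested genes. Of 24 translocation and glycosylation genes, 23 had a positive difference of the suspension effects (median 0.24) and 0 passed that test. Over all genes tested 56.6% of the differences were positive (median 0.05). In suspended cells 5 of the 24 were higher and 0 lower in JNK-deficient cells, beside 5.57% and 6.93% of all tested genes. Among the 5 were Sec11c of the signal peptidase (20.6 and 34.8 FPKM) and Sec61g of the translocon (83.2 and 121 FPKM). After correction for GC content and length 2 of the 5 passed. With suspension 10 of the 24 fell and 3 rose in control and 4 fell and 4 rose in JNK-deficient cells. Of all tested genes 32.1% fell and 33.0% rose in control, and 29.0% fell and 30.6% rose in JNK-deficient cells. Of 22 further folding and redox genes, 4 were higher and 0 lower in attached and 2 higher and 0 lower in suspended JNK-deficient cells. The shares over all tested genes were 14.7% higher and 14.1% lower when attached, and 5.57% and 6.93% when suspended. Ero1lb, an oxidase that makes disulphides, rose with suspension from 4.44 to 17.1 FPKM in control and from 5.29 to 25.4 FPKM in JNK-deficient cells, and Fkbp2, a prolyl isomerase, fell from 47.9 to 20.5 FPKM and from 54.0 to 34.3 FPKM. After the correction Ero1lb passed in both genotypes, while Fkbp2 passed in neither and turned to 0.21 in JNK-deficient cells.

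Of 19 further degradation genes found from a list of 20, 8 rose and 6 fell with suspension in control and 9 rose and 5 fell in JNK-deficient cells. Of all tested genes 33.0% rose and 32.1% fell in control, and 30.6% rose and 29.0% fell in JNK-deficient cells. After correction for GC content and length 3 of the list rose and 5 fell in control, and 3 rose and 4 fell in JNK-deficient cells. In JNK-deficient over control cells 2 of the 19 were higher and 0 lower when attached, and likewise 2 and 0 when suspended. The shares over all tested genes were 14.7% higher and 14.1% lower when attached, and 5.57% and 6.93% when suspended. Erlec1, a lectin of the degradation machinery, was higher without JNK in both states, at 20.3 and 28.6 FPKM attached and 20.2 and 28.7 FPKM suspended. Among 12 further stress regulators found from a list of 14, Wfs1, Creb3l2 and Tmbim6 were higher without JNK in both states. Of the regulators 4 of 11 tested were higher and 1 lower when attached, and 3 of 12 higher and 1 lower when suspended. Wfs1, which encodes a membrane protein of the endoplasmic reticulum, was at 48.2 and 74.3 FPKM attached and at 23.6 and 30.9 FPKM suspended. Map3k5, the gene of ASK1, a kinase upstream of JNK, was lower in both states, at 8.25 and 6.51 FPKM attached and 22.2 and 12.3 FPKM suspended. Its level rose with suspension in both genotypes (log2 ratios 1.32 and 0.84, control first), but more of the list fell than rose. Of 11 regulators tested in control, 1 rose and 5 fell, beside 33.0% and 32.1% of all tested genes. Without JNK 3 of 12 rose and 5 fell, beside 30.6% and 29.0%. The largest falls, of Atf6b (-1.72 and -1.61) and Wfs1 (-1.14 and -1.34), no longer passed after correction for GC content and length. That correction left 2 risers and 3 fallers in control, and 4 and 3 without JNK.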

How the data were processed

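RNA was measured in 12 samples, 3 in each of 4 groups, grouped here by their genotype and culture labels. No label states that samples of a group were separate cultures or animals, and the spread behind the p-values may therefore be technical. Per the labels' protocols, messenger RNA was purified after a DNase step and sequenced on an Illumina machine. TopHat, Bowtie, Cufflinks 1.0.3, Cuffdiff and the build mm10 appear in the submitters' processing notes; whether reads were counted by strand is not given in the sources used here. Each comparison has a deposited table that holds, for 31026 entries, 1 FPKM value per group and a p-value and q-value, all made by the authors. The p-values come in steps of 5e-05. No value per sample is held, so depth is unknown.

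Log2 ratios were computed from the deposited FPKM values, because the deposited ratio column mixes text with numbers. A group's FPKM values had slightly different scales in different tables (up to 0.0895 log2 units), so levels are compared within 1 table. Calls are the authors' q-value below 0.05. The standard error of a ratio was derived as its size over the normal score of the p-value, an upper bound at the lowest p. The difference of the suspension effects was tested with a z-test over 12114 entries tested in all tables, with standard errors averaged over the suspension and the genotype route where both gave one, and Benjamini-Hochberg adjustment. Alternatives were a q-value of 0.01, a minimum of 1 FPKM, a pseudocount of 1 with a log2 size of at least 0.2, centring on the median of all entries, single routes for the standard error, and correction for GC content and transcript length (robust spline fit with 5 degrees of freedom on GENCODE M21 transcripts; it leaves the median entry in place, a choice made after a first result had been seen). Python 3.11.15, statsmodels 0.14.6 and scipy 1.17.1 were used.

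The members and all lists were chosen with earlier results of these data known. Every member is reported; from each further list at most 4 genes are named per comparison, those with the largest log2 ratio among the called with at least 5 FPKM in the higher group. Promoter windows are RefSeq's on GRCm38.p6; 35 members matched by symbol, and for genes with several windows any window counts.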

Additional observations from a re-analysis of the deposited data

Results flagged for a closer look

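For 4 genes the suspension effect differed between JNK-deficient and control cells by a z-test of the difference itself with Benjamini-Hochberg adjustment over 12114 entries. The difference, JNK-deficient minus control on the log2 scale, was -1.06 for Herpud1, -0.57 for Ddit4, 0.74 for Manf and 0.52 for Hspa5. A negative value means a lower suspension ratio in JNK-deficient cells, which is not the same as a lower level. Herpud1 rose with suspension in control cells but fell in JNK-deficient ones, also after correction for GC content and length. Before that correction Manf fell in control and rose in JNK-deficient cells, Hspa5 rose in JNK-deficient cells and did not pass in control cells, and Ddit4 fell in both. After it the rises of Manf (0.08) and Hspa5 (0.12) in JNK-deficient cells no longer passed, Hspa5 was called lower in control cells (-0.37), Manf stayed lower there (-0.60), and the falls of Ddit4 no longer passed. The differences of Hspa5 and Ddit4 did not pass under several alternatives, those of Herpud1 and Manf passed under all that were run. The deposited tables hold no value per sample, so no sample could be checked for standing apart.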

How the results depend on the processing

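No paired analysis was possible because the tables hold no value per sample, and no sample could be left out for the same reason; depth limits could not be assessed. At a q-value below 0.01 the members higher in attached JNK-deficient cells numbered 11 and those lower in suspended JNK-deficient cells 1. After correction for GC content and length, 9 members rose and 9 fell with suspension in JNK-deficient cells, beside 3500 and 2671 of all 12347 genes tested. The ATF4 arm median moved to -0.0351 (control) and -0.0665 (JNK-deficient), and the chaperone arm median to -0.382 and, turned in sign, -0.00669. Atf5 turned to 0.80 and 0.77 and Sesn2 in control cells to 0.50. In control cells 9 calls were lost, 6 were gained and 2 turned; in JNK-deficient cells 14 were lost, 3 gained and 1 turned. The cause was not tested. For the difference of the suspension effects, the members with a positive difference past the threshold numbered 1 at an adjusted p below 0.01, with either route for the standard error, after centring and after GC and length correction, and those with a negative one numbered 1 at 0.01, with the suspension route and after GC and length correction. Centring also moved the share of positive calls over all entries from 30.9% to 19.2%. The filter at 1 FPKM changed 1 member call and the pseudocount 0.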
